A study of Mus musculus with 12 samples.

Results

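The genes described here encode the digestive apparatus of the lysosome other than the cathepsins: 21 hydrolases, 4 lumenal cofactors, 7 membrane proteins and 6 subunits of the proton pump (V-ATPase). They were chosen by name, as 38 gene symbols, and every probe set annotated with exactly 1 of these symbols was taken, whatever its signal. Probe sets were found for 36 of the 38 genes, out of 18193 genes with a set of their own on the arrays. No set carried the symbol Cd63 or Atp6v0c, so the tetraspanin CD63 and the c subunit of the pump are not analysed here. The 36 genes had 84 probe sets, of which 61 passed the filter on dim signal, and these covered 34 genes. The sialidase gene Neu1 (3 sets) and the legumain gene Lgmn (1 set) had no set that passed.

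Bone marrow of mice was cultured with interleukin-3, which keeps mast cells and related myeloid cells growing. The 3 mature cultures (M2, M4 and M6) were taken after 57 to 110 days and the 3 precursor cultures (M1, M3 and M5) after 14 to 16 days, with no genotype, strain or further treatment given for either group. RNA of every culture was hybridised to an Affymetrix MOE430A array, called chip A, and an MOE430B array, called chip B, which gave 12 arrays. M6 and M1 came from females and the remaining cultures from males. The labels estimate purity at about 80% and name monocytes, macrophages and stromal cells as possible other cells, and both groups stayed in the same medium. The labels do not say whether cultures came from separate animals, so p-values measure the spread between these cultures. Signals are the submitters' scaled values in arbitrary units, and the median array signal ranged over 534 to 692 for chip A and 816 to 913 for chip B.

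Lysosomal hydrolases work in an acid lumen that the V-ATPase maintains by pumping protons, and most reach the lysosome on mannose 6-phosphate receptors. Each hydrolase cuts a particular kind of bond from sugars, sulfated chains, lipids or proteins, and several need a small cofactor protein to reach a lipid. Heavily glycosylated membrane proteins line the organelle, and channels and transporters in its membrane move calcium and the products of digestion. In mast cells the secretory granule is a lysosome-related organelle: it is acid, it holds heparin or chondroitin sulfate chains, and it holds hydrolases such as beta-hexosaminidase and arylsulfatases that leave the cell with histamine on degranulation. Transcription factors of the MiT/TFE family, among them Mitf, a regulator of mast cell genes, are known to bind an E-box, CACGTG, in the promoters of many lysosomal genes.

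That E-box was not used to choose the members. It is known from promoters of lysosomal genes, however, so the shares below are not an independent finding. RefSeq promoter windows of 300 bases (250 before and 50 after the start of transcription, GRCm38.p6) were at hand for 32 of the 38 members. CACGTG, which reads the same on both strands, stood in at least 1 window of 12 of these 32 genes (37.5%), against 8.09% of the 27025 genes in the table. The 8-base form TCACGTGA, which contains it, stood in 5 of the 32 (15.6%), against 1.12% of all genes. Neither share was particular to the members: the cathepsins had CACGTG in 4 of 9 genes (44.4%) and the longer form in 2 (22.2%), and the other lysosomal genes in 11 (20.8%) and 7 (13.2%) of 53. The share with CACGTG was 7 of 18 hydrolases, 3 of 6 membrane proteins, 2 of 4 pump subunits and 0 of 4 cofactors. A match describes the letters only, and factor binding was not measured. The stretches around the 8-base form in its 5 genes, and the 4 CACGTG copies just before the start of Lamp1, are shown because they hold the longer form or the most copies among the members. Capitals mark the matches, and each is written 5′ to 3′ on the strand of its gene. The regions are chrX:134601179-134601247 (minus strand, Gla), chr7:126583319-126583390 (minus, Cln3), chr8:3500441-3500512 (plus, Mcoln1), chr8:105566029-105566100 (minus, Atp6v0d1), chr16:44139352-44139423 (minus, Atp6v1a) and chr8:13159092-13159159 (plus, Lamp1).
Gla: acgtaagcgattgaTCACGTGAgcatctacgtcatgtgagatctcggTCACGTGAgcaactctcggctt
Cln3: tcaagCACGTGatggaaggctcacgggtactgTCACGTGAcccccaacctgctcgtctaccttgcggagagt
Mcoln1: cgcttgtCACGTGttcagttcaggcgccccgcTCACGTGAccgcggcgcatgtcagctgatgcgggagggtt
Atp6v0d1: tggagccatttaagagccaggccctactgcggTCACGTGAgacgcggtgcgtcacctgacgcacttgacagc
Atp6v1a: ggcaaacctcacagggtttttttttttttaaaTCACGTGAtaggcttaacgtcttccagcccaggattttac
Lamp1: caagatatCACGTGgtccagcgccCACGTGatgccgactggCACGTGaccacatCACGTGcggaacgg
The 11 tested members with CACGTG had a median log2 difference (mature minus precursor) of -0.13, with 8 lower and 3 higher in the mature cultures. The 17 without it had a median of -0.15, with 10 lower and 7 higher. The 5 genes with the 8-base form were all lower in the 1 set used per gene, by 0.13 to 0.63 on the log2 scale. None of these differences passed the test described next. Other tested sets did not all share that sign. Those of Mcoln1 were higher, by 0.42 and 0.47, and that of Cln3 differed by 0.00. Those of Atp6v0d1 (-0.23) and Atp6v1a (-0.15) were lower.

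None of the lysosomal genes described here, which leave out the cathepsins, passed the test between mature and precursor cultures. Most were close in mean signal. Of 11 tested cathepsins, given below for comparison, 4 passed. In limma with Benjamini-Hochberg adjustment over each chip, 0 of the 34 tested genes, and 0 of their 61 probe sets, passed an adjusted p of 0.05. By the same test, 0.527% of the 11576 sets tested on chip A passed, and 0.0926% of the 11880 of chip B. At an unadjusted p under 0.05, 2 of the 34 genes were lower in the mature cultures, the prosaposin gene Psap on chip A and the sulfatase gene Arsb on chip B, and 0 were higher. Without M3 the lower count was 6, and 1 gene was higher without M1, M2 or M6 or with array weights. By probe set, 5 of the 61 were lower at an unadjusted p under 0.05 and 0 higher, with a set of Grn among the lower ones. The background for that count was 3.81% of sets lower and 2.78% higher on chip A, and 3.32% lower and 3.10% higher on chip B. Each gene was counted by its brightest tested set on chip A, or on chip B where chip A had none. Brighter chip B readings of Ids, Psap and Atp6v0d1 were thus left out of the count. By this rule 23 of the 34 genes were lower in the mature cultures and 11 higher, with a median log2 difference of -0.18. That median was -0.0858 without M4 and -0.315 without M6, and the split was 28 lower and 6 higher without M6 or with array quality weights, against 21 and 13 without M3. Over the 61 tested sets of the members, 40 were lower and 21 higher, with a median of -0.13. The median over all tested sets was 0.02 on chip A, where 47.9% were lower, and 0.00 on chip B, where 49.6% were lower. The difference was under 1.5-fold in 30 of the 34 genes and over 2-fold in 2.

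Mature and precursor cultures did not overlap in 8 of the 34 genes, each read by 1 set. Mature cultures were lower in 7 of them, the hydrolase genes Gusb, Man2b1, Arsb, Galns, Ppt1 and Asah1 and the cofactor gene Psap, and higher in 1, Arsa. Among all tested sets of chip A, 6.06% had every mature culture lower and 6.14% every mature culture higher, and of chip B 5.83% and 6.17%. In RNA from whole cultures, fewer cells of a type and less RNA per cell cannot be told apart.

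**Figure D1:**
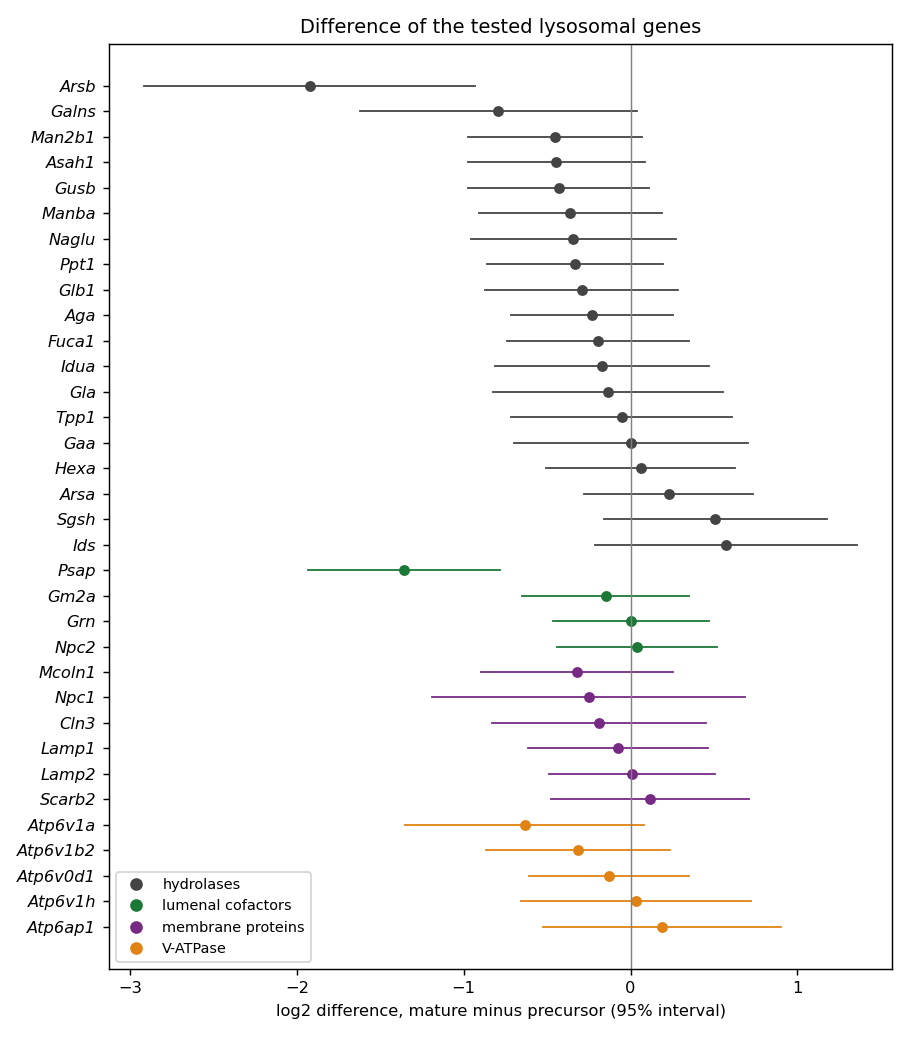
Log2 difference, mature minus precursor, of 1 probe set per gene for the 34 genes, by class. Each is the brightest tested set on chip A, or on chip B where chip A had none. The horizontal axis is log2 and bars are 95% intervals from limma. The intervals of Arsb (-2.91 to -0.94) and Psap (-1.94 to -0.79) lie below 0, and those of the other genes include 0.

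Among the hydrolases, 14 of 19 tested genes were lower in mature cells and 5 higher, and 0 passed the adjusted test, with 1 lower at an unadjusted p under 0.05 (limma). The class median was -0.23 on the log2 scale. Within the class the 11 tested enzymes that cut sugar chains, the glycosidases and aspartylglucosaminidase, had 9 lower, a median of -0.23, and a range of -0.45 to 0.06, so that none was as much as 1.5-fold apart.

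Man2b1, the lysosomal alpha-mannosidase that trims N-glycans, had signals of 15920, 14279 and 16103 in M2, M4 and M6, against 27211, 16972 and 20397 in M1, M3 and M5. The mature cultures lay close together and just below the lowest precursor culture, M3 (log2 difference -0.45, SE 0.24, adjusted p = 0.788, limma). Gusb, beta-glucuronidase, which removes glucuronic acid from glycosaminoglycans, had 2621, 2419 and 2347 in the mature cultures, against 3006, 2892 and 4196 in the precursor cultures. Here too the groups stood apart by a narrow gap, with M5 the highest (-0.43, SE 0.25, adjusted p = 0.808, limma). Manba, the beta-mannosidase, differed by -0.36, Naglu, which takes N-acetylglucosamine off heparan sulfate, by -0.34, and Glb1, beta-galactosidase, by -0.29. In these 3 genes the groups overlapped. Aga, aspartylglucosaminidase, which splits sugar from asparagine, was read on chip B and differed by -0.23. Fuca1, the alpha-fucosidase, differed by -0.20, Idua, the iduronidase of heparan and dermatan sulfate, by -0.17, and Gla, alpha-galactosidase A, by -0.13. Each of these 4 genes had overlapping groups as well.

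Hexa encodes the alpha subunit of beta-hexosaminidase, whose release is a standard measure of mast cell degranulation. Its signal was 20725, 26590 and 29488 in the mature cultures, against 30490, 26098 and 17944 in the precursor cultures. The mature range lay inside the precursor range, and the difference was 0.06 with a 95% interval of -0.50 to 0.63. Gaa, the acid alpha-glucosidase that breaks down glycogen, had 2335, 2913 and 5352 in M2, M4 and M6, against 3099, 3023 and 3881 in M1, M3 and M5, in its brightest set (1436849_x_at). M2 and M4 were the lowest of the 6 cultures and M6 the highest, and the mean difference was 0.00 (interval -0.70 to 0.70). A second set of Gaa differed by -0.15.

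The sulfatases had the widest spread, from -1.92 to 0.57, with 2 of 5 lower, 3 higher and a median of 0.23. Arsb removes the 4-sulfate of chondroitin and dermatan sulfate. Its set 1429189_at on chip B read 2042, 1857 and 1020 in M2, M4 and M6, against 6198, 3006 and 11373 in M1, M3 and M5. All mature cultures were below all precursor cultures, and the precursor values differed among themselves, with M5 over 3 times M3. The log2 signal averaged 10.62 ± 0.54 in mature and 12.54 ± 0.96 in precursor cultures (SD, n = 3 each), a difference of -1.92 (SE 0.45), or 3.80-fold lower, with a 95% interval of 1.91- to 7.54-fold. This did not pass after adjustment (adjusted p = 0.235, limma), and over 16 alternatives the adjusted p was 0.0971 to 0.766. The other tested set of Arsb, 1458281_at, pointed the other way, with 1333, 1678 and 1992 in mature and 1348, 1154 and 1191 in precursor cultures (0.42, SE 0.35, adjusted p = 0.857, limma). Which of the 2 sets follows the Arsb messenger RNA more closely was not tested.

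Galns, the sulfatase of keratan sulfate and chondroitin 6-sulfate, had 557, 512 and 688 in the mature cultures, against 1647, 701 and 881 in the precursor cultures. M1 stood well above the rest, and M6 nearly reached M3 (-0.79, SE 0.38, adjusted p = 0.748, limma). Arsa, arylsulfatase A, which acts on sulfatide, read 3876, 4359 and 5185 in mature and 3827, 3710 and 3834 in precursor cultures. It was the only member whose brightest set was higher in every mature culture than in every precursor culture, by a small margin (0.23, SE 0.23, adjusted p = 0.914, limma). Sgsh, the N-sulfatase of heparan sulfate, read 1681, 2777 and 2916 in mature and 1786, 2085 and 1270 in precursor cultures. M4 and M6 were the highest of the 6, while M2 lay within the precursor range (0.51, SE 0.30, adjusted p = 0.808, limma). Ids, the iduronate sulfatase of heparan and dermatan sulfate, read 2229, 3383 and 1586 in mature and 2297, 1472 and 1073 in precursor cultures in the brightest tested set of chip A. M4 was the highest and the groups overlapped (0.57, SE 0.35, adjusted p = 0.825, limma). A further tested set of Ids on each chip also had a higher mature mean, by 0.20 on chip A and 0.18 on chip B.

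Of the remaining hydrolases, which cut peptides, fatty acids or ceramide, all 3 with a tested set were lower in the mature cultures, with a median of -0.33. Asah1, the acid ceramidase, had 5708, 5039 and 5491 in the mature cultures, against 8680, 5777 and 7937 in the precursor cultures. The groups stood apart by less than the spread of the precursors (-0.44, SE 0.24, adjusted p = 0.804, limma). Ppt1, the thioesterase that removes palmitate from proteins, read 2416, 1824 and 2427 in mature and 2721, 2746 and 2863 in precursor cultures in its brightest set on chip A (1422467_at). That set was lower in every mature culture (-0.33, adjusted p = 0.867, limma), as was 1420015_s_at on chip B (-0.56, adjusted p = 0.788). A further set, 1444884_at on chip B, was higher in every mature culture (0.46, adjusted p = 0.857), and the last tested set differed by 0.08. Tpp1, the tripeptidyl peptidase, read 17371, 8642 and 15867 in mature and 12187, 17561 and 12425 in precursor cultures. M4 alone was low, and the difference was -0.05 with an interval of -0.71 to 0.61.

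For the 2 hydrolase genes that did not pass the filter, no difference was tested. Neu1 lay between 52.9 and 760 in the mature and between 48.3 and 949 in the precursor cultures over its 3 sets. Lgmn, an asparaginyl endopeptidase, lay between 16.1 and 358 in mature and between 155 and 690 in precursor cultures.

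The cofactors held the member with the smallest p. Psap encodes prosaposin, which lysosomal proteases cut into the saposins that present sphingolipids to hydrolases such as arylsulfatase A, beta-galactosidase and acid ceramidase. Its set 1415687_a_at on chip A read 11616, 10238 and 15147 in M2, M4 and M6, against 23307, 38897 and 33640 in M1, M3 and M5. The highest mature culture, M6, lay well below the lowest precursor culture, M1. The log2 signal averaged 13.57 ± 0.29 in mature and 14.93 ± 0.38 in precursor cultures (SD, n = 3 each), a difference of -1.36 (SE 0.26), or 2.57-fold lower with a 95% interval of 1.72- to 3.83-fold (adjusted p = 0.0548, limma). The same set is printed on chip B, which read the same cultures again. There it had 42461, 35333 and 38350 in mature and 89182, 119463 and 152578 in precursor cultures, 3.05-fold lower (-1.61, SE 0.25, adjusted p = 0.0542, limma). A second set on chip A, 1421813_a_at, read 2519, 2357 and 2440 in mature and 4076, 4106 and 3377 in precursor cultures (-0.65, SE 0.23, adjusted p = 0.493, limma). All 3 readings of Psap thus separated the groups in the same direction, and none passed the adjusted threshold.

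The chip A reading of Psap passed in 3 of 16 alternatives, with a floor at the 50th percentile (adjusted p = 0.0488), with array quality weights (0.0199) and without M1 (0.0454). The chip B reading also passed in 3, with that floor (0.0287), with sex as a block (0.0398) and without M1 (0.0344). Over all alternatives the chip A difference stayed between -1.57 and -1.20 and its adjusted p between 0.0199 and 0.446 (limma). Comparing cultures that shared a fluidics station gave -1.005 on station 1 (M2 against M1) and -1.538 on station 2 (M4 and M6 against M3 and M5). Within a sex it was -0.62 in female cultures (M6 against M1) and -1.73 in male cultures (M2 and M4 against M3 and M5).

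Grn encodes progranulin, a secreted and lysosomal protein cut into granulins. Its brightest set, 1438629_x_at, read 111691, 111723 and 167077 in mature and 138505, 122999 and 121494 in precursor cultures. M2 and M4 were the lowest and M6 the highest, with a mean difference of 0.00 (interval -0.46 to 0.47). Another set, 1448148_at, read 4322, 3978 and 3472 in mature and 8684, 6696 and 5602 in precursor cultures, without overlap (-0.82, SE 0.25, adjusted p = 0.353, limma). The last, 1456567_x_at, differed by -0.32. Names ending in x_at mark sets whose probes may also match other transcripts, and whether that bears on these 2 sets was not tested.

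The other cofactors had mean signals close to each other in the 2 groups. Npc2, the soluble protein that hands cholesterol to Npc1, read 70996, 75026 and 105817 in mature and 91048, 74145 and 76742 in precursor cultures (0.04, interval -0.44 to 0.52). Gm2a, the activator that lets beta-hexosaminidase cut ganglioside, read 23070, 24416 and 35336 in mature and 30401, 31064 and 28781 in precursor cultures (-0.15, interval -0.65 to 0.35). In both genes M6 was the highest of the 6 cultures. The further tested sets of Npc2 differed by -0.10 on chip A and -0.12 on chip B, and that of Gm2a by 0.08.

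**Figure D2:**
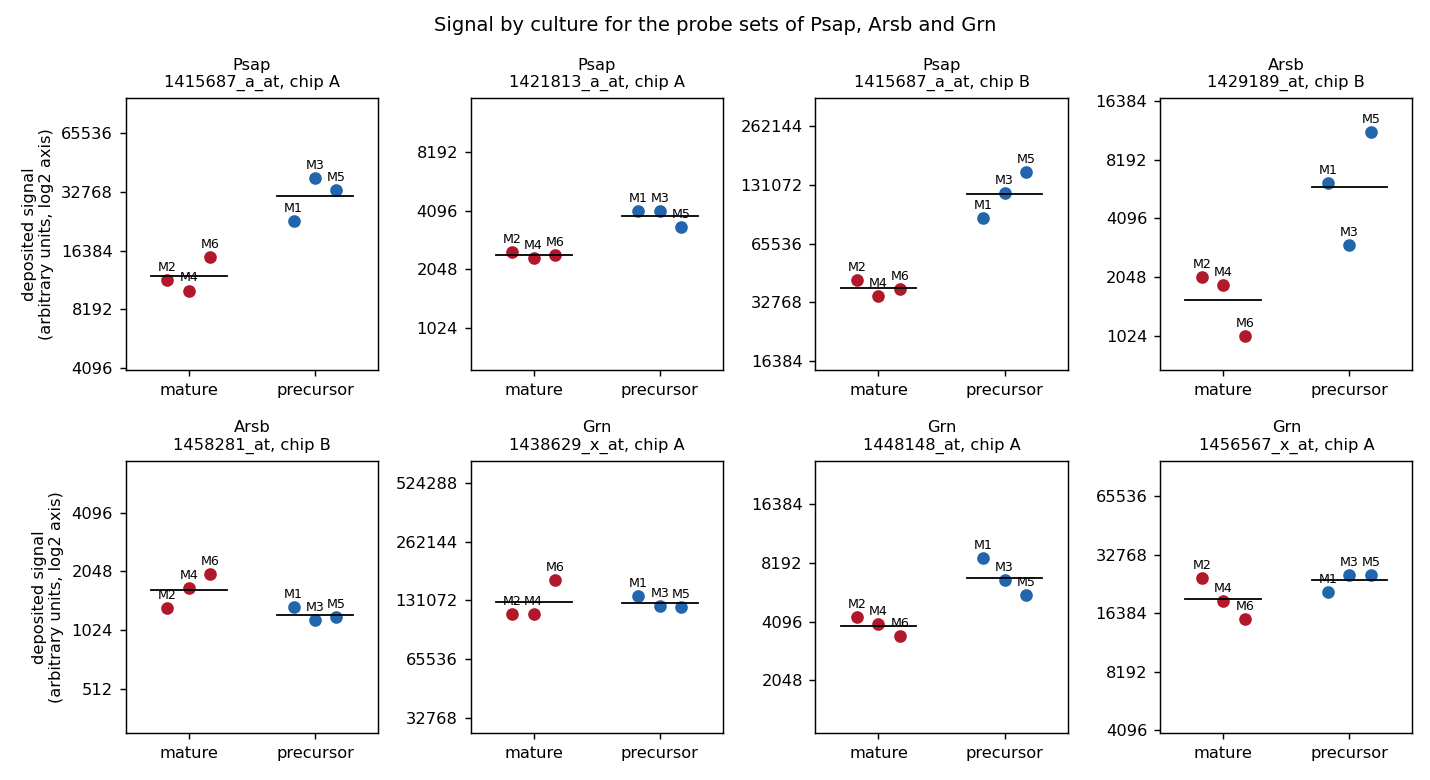
Deposited signal (arbitrary units, log2 axis, each panel spanning the same fold range) by culture for the tested probe sets of Psap, Arsb and Grn; points are cultures and lines are the group means on the log scale. The 3 Psap readings, Arsb 1429189_at and Grn 1448148_at have all mature cultures below all precursor cultures, and the other 3 sets overlap.

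Of the membrane proteins, 4 of 6 tested genes were lower and 2 higher, with a median of -0.13, and 0 passed the test, 0 also at an unadjusted p under 0.05 (limma). In none did the groups stand apart, and all were within 1.5-fold. Lamp1, a main glycoprotein of the lysosomal lining, read 29048, 24782 and 39504 in mature and 26942, 38580 and 31847 in precursor cultures. High and low cultures occurred in both groups (-0.07, interval -0.61 to 0.47). Lamp2, its relative with splice forms for autophagy, read 25617, 32050 and 22346 in mature and 27592, 28817 and 22571 in precursor cultures in its brightest set (0.01, interval -0.49 to 0.51). Its 3 other tested sets differed by -0.48, -0.04 and -0.43. Scarb2 (LIMP-2), which carries glucocerebrosidase to the lysosome, read 3088, 2854 and 4182 in mature and 2356, 3454 and 3541 in precursor cultures (0.12, interval -0.48 to 0.71). Its second set differed by -0.49, so that the sets of this gene did not share a sign.

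Npc1, the membrane partner of Npc2 in cholesterol export, read 741, 365 and 853 in mature and 623, 1058 and 590 in precursor cultures. M4 was the lowest and M3 the highest, and the interval was wide (-0.25, interval -1.19 to 0.69). Cln3, the protein lost in juvenile Batten disease, read 1997, 2441 and 2922 in mature and 2668, 3844 and 2050 in precursor cultures (-0.19, interval -0.83 to 0.45). On chip B another set of Cln3 differed by 0.00. Mcoln1, the calcium-permeable channel TRPML1, read 1680, 1583 and 2347 in mature and 2553, 2479 and 1925 in precursor cultures in its brightest set. M2 and M4 were the lowest, and M6 lay among the precursor cultures (-0.32, interval -0.90 to 0.25). Both other tested sets of Mcoln1 differed the other way, by 0.42 on chip A and 0.47 on chip B.

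Of the V-ATPase, 3 of 5 tested subunits were lower and 2 higher, with a median of -0.13, and 0 passed the test, 0 also at an unadjusted p under 0.05 (limma). The pump has a V0 part in the membrane and a V1 part that splits ATP. Atp6v0d1, a V0 subunit, read 9067, 7963 and 8466 in mature and 10441, 8931 and 8570 in precursor cultures. Its cultures lay closer together than those of any other member, spanning 0.39 on the log2 scale (-0.13, interval -0.61 to 0.35), and its reading on chip B differed by -0.23. Atp6v1a, the catalytic V1 subunit, read 3030, 2793 and 1984 in mature and 5406, 2496 and 4661 in precursor cultures. M1 and M5 were high and M3 was not (-0.63, SE 0.32, adjusted p = 0.783, limma). A second set of Atp6v1a differed by -0.15.

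Atp6v1b2, the V1 subunit beside it, read 4366, 4159 and 5155 in mature and 7236, 5294 and 4693 in precursor cultures, with M1 the highest (-0.31, interval -0.87 to 0.24). Atp6v1h, a regulatory V1 subunit, read 3650, 1978 and 2460 in mature and 1873, 3393 and 2608 in precursor cultures (0.03, interval -0.66 to 0.72). Atp6ap1, an accessory protein of the pump, read 7273, 12594 and 9155 in mature and 11579, 9175 and 5332 in precursor cultures (0.19, interval -0.52 to 0.90). In these last 2 genes high and low cultures occurred in both groups.

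Where a gene had several tested sets, they often disagreed. Of 18 such genes, 8 had sets of 1 sign and 10 of both signs. In 5 of these, Arsb, Ppt1, Grn, Scarb2 and Mcoln1, sets of opposite sign lay over 0.5 apart on the log2 scale. The class medians rest on 1 set per gene, and were -0.23 for the hydrolases and -0.07 for the cofactors. With all tested sets of a gene averaged they were -0.13 and -0.22.

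By culture, the median level of the lysosomal genes overlapped between the stages. Taking in each culture the median deviation of the 34 genes from their means over the 6 cultures, M2 lay at -0.17, M4 at -0.23 and M6 at 0.04, against M1 at 0.14, M3 at 0.08 and M5 at -0.02. M6 was thus above M5, and the groups overlapped. M4 was the lowest culture in 15 of the 34 genes, M1 the highest in 10 and M6 the highest in 8. For the 19 hydrolases alone the levels were -0.16, -0.26 and -0.15 in M2, M4 and M6, and 0.14, 0.06 and 0.05 in M1, M3 and M5. Those groups did not overlap. The 5 pump subunits were at -0.07, -0.19 and -0.07 in M2, M4 and M6, and at 0.39, 0.05 and -0.05 in M1, M3 and M5, a narrow separation. Both are descriptions with no test. For the cofactors M6 (0.34) was the highest culture, and for the membrane proteins M3 (0.285) and M6 (0.262) were the highest. The median difference of the 34 genes was -0.335 on fluidics station 1 and -0.16 on station 2, and -0.13 among female and -0.29 among male cultures. Station 1 (M2 against M1) and the female cultures (M6 against M1) have only 1 culture per group. The cofactors had a median of -0.378 on station 1 and 0.0674 on station 2, and the membrane proteins 0.00 and -0.12. Both classes had opposite signs in the sexes, with medians of 0.22 and 0.29 among female cultures, against -0.23 and -0.37 among male cultures. An effect of sex was not tested. Arrays of M6 had the lowest rank correlations with the others, 0.85 to 0.883 on chip A.

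**Figure D3:**
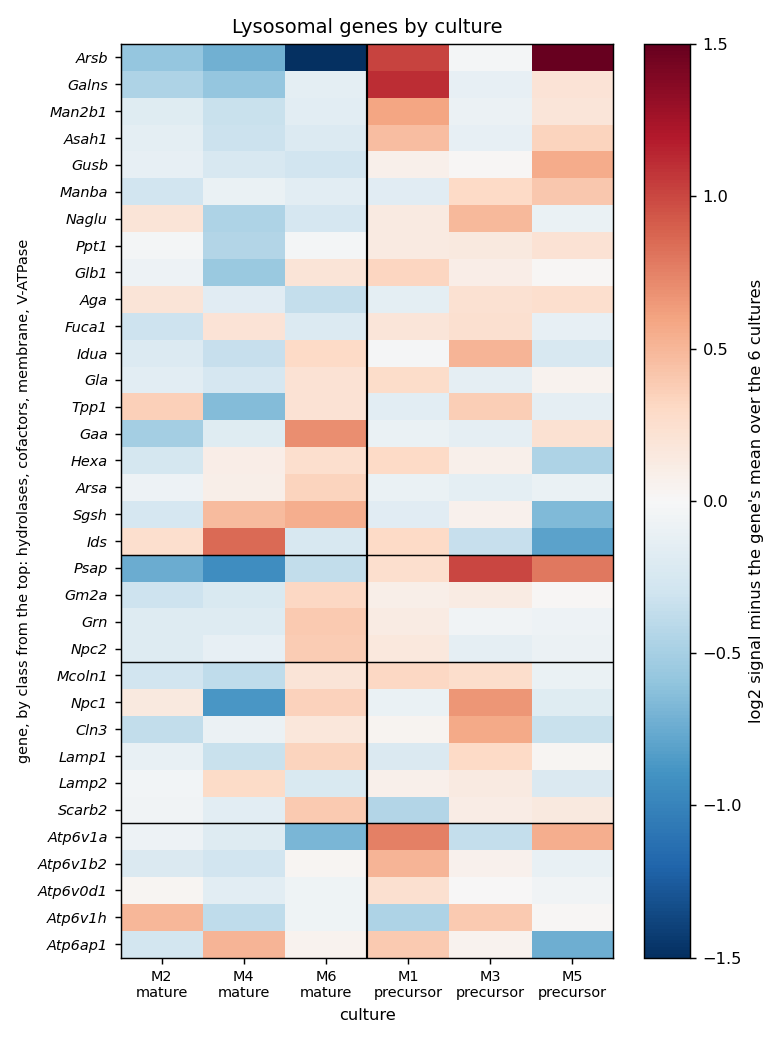
Log2 signal of the brightest tested set of each of the 34 genes minus its mean over the 6 cultures, with mature cultures on the left and precursor cultures on the right; colours are capped at 1.5 in either direction. Arsb, Galns, Man2b1, Asah1, Gusb, Ppt1, Psap and, the other way, Arsa separate the groups, and the other rows show high and low cultures in both.

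Other lysosomal genes, from lists made for comparison, also held none that passed apart from the cathepsins. Of 52 tested genes (12 other hydrolases, 17 other membrane proteins, 13 other pump subunits, 8 genes of mannose 6-phosphate sorting and 2 MiT/TFE factors), 0 passed the adjusted test in limma, an unadjusted p under 0.05 was reached by 7 genes lower and 1 higher in mature cells, and the median was -0.12. Hyal2, a hyaluronidase, read 152, 155 and 236 in mature and 890, 856 and 771 in precursor cultures. All mature values lay under the floor of 247 and no precursor value did (at least 3.39-fold lower, adjusted p = 0.135, limma). Among the same list Scpep1, a serine carboxypeptidase, differed by -1.04. The a3 pump subunit Tcirg1 differed by -0.50. Atp6v0d2, a form of the d subunit known from macrophages and osteoclasts, read 400, 495 and 1539 in mature and 1043, 8707 and 2307 in precursor cultures. M3 alone was far above the rest (-2.03, adjusted p = 0.656, limma).

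Of the other membrane proteins, the calcium channel Tpcn2 differed by -0.997 and the sialomucin Cd164 by -0.99. Laptm5, known from blood cells, was higher in every mature culture, with 77104, 80261 and 126682, against 54695, 72251 and 47138 in precursor cultures (0.69, adjusted p = 0.554, limma). In the sorting route Nagpa, which uncovers the mannose 6-phosphate tag, differed by -1.10 and the receptor Sort1 by -0.61. The MiT/TFE factors Tfe3 and Mitf differed by -0.16 and 0.11. Tfec and Tfeb did not pass the filter on dim signal and were not tested. Tfec read 21.0, 10.3 and 36.0 in mature cultures, all at the floor, against 647, 160 and 1683 in precursor cultures, with M3 under the floor too. Tfeb read 149, 621 and 420 in mature and 511, 344 and 504 in precursor cultures, with overlap.

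The cathepsins had 4 of 11 tested genes lower after adjustment (Ctsl, Ctsh, Ctss and Ctsz), with a median of -1.28 and the lowest adjusted p at 0.00464 (limma). Whether the cathepsins differ from the other lysosomal genes was not tested. Some markers of other cells were also lower in the mature cultures. Of 15 tested monocyte and macrophage markers 7 were lower after adjustment in limma (Lyz1, Lyz2, Csf1r, Mpeg1, Clec7a, Cd68 and Adgre1), with a median of -1.68. Their summed chip A signal over 14 genes was 21414 to 30908 in mature and 137075 to 190205 in precursor cultures. C1qa, Itgam and Mpeg1 lay at the floor in all mature cultures. In M1, M3 and M5, C1qa read 43.1, 106 and 319 and Itgam 354, 289 and 339, near or under the floor of 247. Cd163 lay at the floor in all precursor cultures. C1qa, Itgam, Cd163, C1qc, Marco and Siglec1 did not pass the filter and were not tested. Lyz1 gave most of the precursor sums, and 1 marker, Cx3cr1, had a higher mature mean (0.45). Of 8 neutrophil markers 1 was lower after adjustment (Chil3, limma). All 8 had lower mature means, with a median of -2.19, and 6 were lower at an unadjusted p under 0.05 (limma). The sums over the 7 read on chip A were 2903 to 4659 in mature and 60011 to 167183 in precursor cultures. Chil3, Prtn3 and S100a8 lay at the floor in all mature cultures. M3 stood apart from the other precursor cultures here: Chil3 gave 56623 of its sum of 60011. Its Ngp (601), Mpo (614), Ltf (265) and Elane (720) lay within or below the mature ranges, and Prtn3 and S100a8 lay at the floor. Of 6 stromal markers 1 was lower after adjustment (Igfbp4), while 3 had lower and 3 higher mature means with a median of -0.06. Their sums over 5 genes were 5451 to 10032 in mature and 15735 to 24810 in precursor cultures, most of it from Igfbp4 in the precursors, and Sparc, Lepr and Col1a2 differed the other way (0.33, 0.22 and 0.17). Pdgfrb lay at the floor in both groups.

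Of 14 mast cell markers, the check of the cell label, 12 were tested, and these lay above the floor in every culture. Their summed signals were 541664 to 919299 in mature and 558579 to 660915 in precursor cultures, with Cpa3 the largest part throughout. After adjustment 1 was lower (Hdc, limma), while 3 had lower and 9 higher mature means. Tpsab1 differed by -0.99, and Cma1 was higher in every mature culture (0.63). Mcpt4 did not pass the filter and read 300, 162 and 67 in mature and 284, 276 and 1159 in precursor cultures. The part of other cells in the lower Psap and Arsb signals was not tested.

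**Figure D4:**
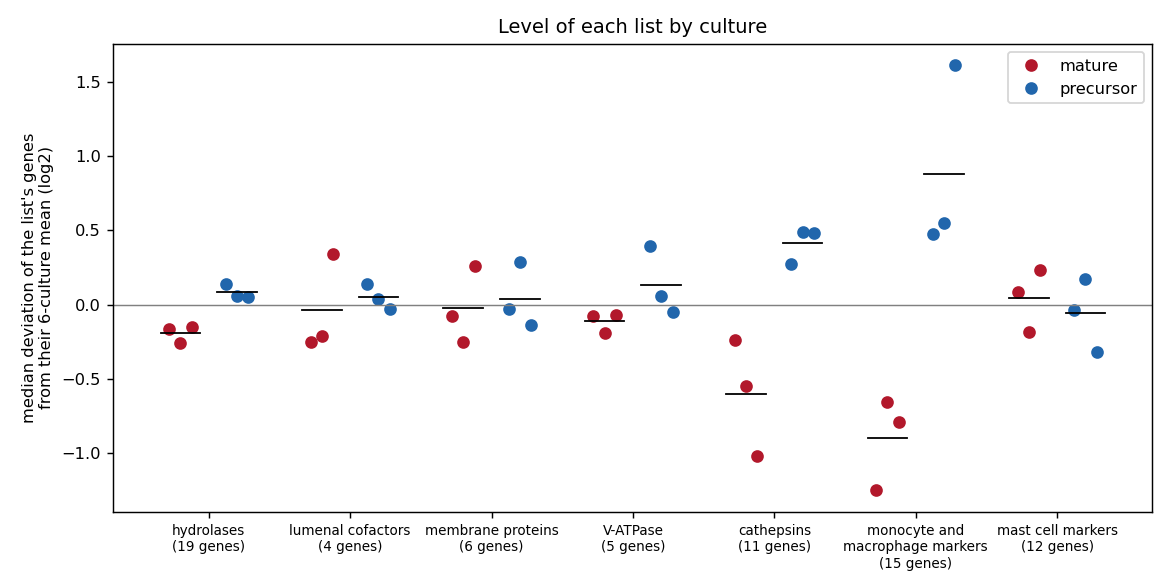
Median log2 deviation of the genes of each list from their mean over the 6 cultures, with mature cultures left of precursor cultures; points are cultures and lines are group means. The hydrolases lie at -0.26 to -0.15 in mature and 0.05 to 0.14 in precursor cultures, and the gaps of the cathepsins and of the monocyte and macrophage markers are wider.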

How the data were processed

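RNA of 6 mast cell cultures was measured on 2 Affymetrix chips. The authors deposited linear intensity values, 1 per probe set, made with MAS5 per the submitters' processing notes (version and settings not given in the sources used here). The values show each array scaled to a mean of about 1500 without the top and bottom 2% of sets. Instrument records (unit: other, deposited as text) were read for the fluidics station only. Probe sets were named from the platform annotation.

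Each chip was handled apart. The 30th percentile of a chip (247 for chip A, 359 for chip B) served as a floor for lower signals before taking log2. Sets were tested when at least 3 of 6 arrays exceeded the chip median, leaving out controls. The test of mature against precursor cultures was limma 3.58.1 under R 4.3.3 (lmFit, eBayes with intensity trend, no covariate), two-sided, adjusted by Benjamini-Hochberg within a chip, with 0.05 as threshold. Intervals are 95%. A gene is summarised by its brightest tested set on chip A, or on chip B where chip A had none. Beyond this choice, signals of different probe sets are not compared. The number of arrays limits the precision.

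The members, gene lists and settings were chosen with earlier results of these data known. Genes given in full were those with an unadjusted p under 0.05, the 4 largest and 2 smallest differences per class, and those whose sets disagreed by over 0.5. Gusb, Man2b1, Asah1, Arsa and Hexa were added after their values were seen, as was Laptm5. Of the comparison lists, called genes and the 2 largest differences were named. The fit was run on simulated data as a check of the code, and its power at the differences reported here is not given. Alternatives covered scaling, floor, filter, sex or station as a block, the variance model and each culture left out.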

Additional observations from a re-analysis of the deposited data

How the results depend on the processing

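No paired analysis was possible because the groups share no replicate numbers. Over 10 alternatives with all cultures and 6 that left out 1 culture, 21 of 34 lysosomal genes kept their sign and 13 did not (Hexa, Gaa, Idua, Tpp1, Npc2, Grn, Lamp1, Lamp2, Scarb2, Npc1, Cln3, Atp6v1h and Atp6ap1), and Psap was the only one called. Lysosomal genes called numbered 1 with the 50th percentile floor and 1 with array weights, and 0 to 1 with a culture left out. Lysosomal sets called numbered 2 with that floor, 1 with sex as a block, 1 with weights, and 0 to 2 with a culture left out, the 2 being Psap without M1. Other pathway genes called numbered 4 in the reported fit, all cathepsins, 0 with no filter and 2 to 4 with a culture left out. Chip A had 61 sets called, 1 with no filter and 21 to 59 with a culture left out (25 without M2, 21 without M5). Chip B had 11, and 4 with no floor, 17 with the higher floor, 0 with no filter, 6 with a filter on the mean, 17 with sex as a block, 3 with no trend, 7 with weights and 3 to 11 with a culture left out. The hydrolase median was -0.293 with no filter, -0.348 with weights, -0.134 over all sets of a gene and -0.345 to -0.189 with a culture left out. The cofactor median turned positive without M2 (0.0334) or M4 (0.0128), as did the membrane protein median without M3 (0.0556). A left-out culture leaves 2 in its group. The number of arrays limits what can be detected: the median SE was 0.308 on chip A and 0.389 on chip B. The cause of these shifts was not tested.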
